A study of Mus musculus with 4 samples.

Results

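Normal mouse prostate was profiled on 2 Illumina bead arrays, called normal 1 and normal 2, out of 4 arrays in the series. Both came from wild-type C57Bl/6 mice 18 weeks old. The labels give no treatment, no lobe of the gland, and no word on whether separate mice, pooled mice or 1 mouse supplied the RNA. The spread between these arrays may therefore be technical, and it may leave out the spread between animals. The other 2 arrays hold tumor cell lines and are not described here. Every probe of both arrays was used, 24613 in all, without any choice by signal. With 1 group of 2 arrays no test between groups is possible, so the values below describe these 2 libraries.

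The prostate is a gland of branched ducts. Luminal epithelial cells line the ducts and pour secretory proteins into the semen, basal epithelial cells lie beneath them, and a sheath of smooth muscle contracts to expel the fluid. In the mouse the seminal vesicles lie against the anterior part of the prostate and secrete the proteins from which the copulatory plug is made. Tgm4, the transglutaminase secreted by the anterior prostate, cross-links those proteins.

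The start regions of 4 of the brightest secretory genes are shown because Tgm4 and proteins of the seminal vesicle stood near the top of the profile. The sequences are RefSeq's of build GRCm38.p6, 300 bases each, from 250 bases before to 50 bases after the annotated start, written 5′ to 3′ on the strand of the gene. Capitals mark TATAAA, the core of the TATA box, and its reverse complement TTTATA, both of which were searched. The Tgm4 region lies at chr9:123034491-123034790 on the plus strand, and those of Svs2 and Svs4 at chr2:164238292-164238591 and chr2:164278258-164278557 on the minus strand. The Svs5 region lies at chr2:164332515-164332814 on the plus strand of the same chromosome.
Tgm4: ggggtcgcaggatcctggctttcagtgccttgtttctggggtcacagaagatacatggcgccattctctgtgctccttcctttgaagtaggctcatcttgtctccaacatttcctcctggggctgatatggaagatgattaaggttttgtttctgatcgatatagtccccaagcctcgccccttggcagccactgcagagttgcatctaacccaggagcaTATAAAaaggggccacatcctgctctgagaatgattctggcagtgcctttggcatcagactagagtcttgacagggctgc
Svs2: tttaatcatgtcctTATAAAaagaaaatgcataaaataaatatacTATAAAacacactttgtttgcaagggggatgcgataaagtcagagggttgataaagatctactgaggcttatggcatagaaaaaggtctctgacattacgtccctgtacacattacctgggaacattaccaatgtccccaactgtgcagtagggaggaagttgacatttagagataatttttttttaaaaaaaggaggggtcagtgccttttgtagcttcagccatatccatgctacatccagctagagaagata
Svs4: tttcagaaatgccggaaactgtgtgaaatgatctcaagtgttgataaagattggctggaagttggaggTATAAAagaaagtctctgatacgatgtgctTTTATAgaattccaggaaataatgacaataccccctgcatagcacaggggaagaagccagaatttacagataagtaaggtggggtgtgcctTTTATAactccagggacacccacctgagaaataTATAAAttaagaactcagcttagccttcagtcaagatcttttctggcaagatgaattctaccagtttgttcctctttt
Svs5: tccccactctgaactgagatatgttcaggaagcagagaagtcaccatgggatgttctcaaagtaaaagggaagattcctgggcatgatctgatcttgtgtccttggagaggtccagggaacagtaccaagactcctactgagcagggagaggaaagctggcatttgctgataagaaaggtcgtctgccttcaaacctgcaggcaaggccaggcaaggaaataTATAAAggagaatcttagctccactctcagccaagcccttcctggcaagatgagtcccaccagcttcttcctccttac
In Tgm4 the motif began 30 bases before the start, and in Svs5 28 bases before it. Svs4 held it 28 bases before the start, and further copies 61, 152 and 182 bases before it on either strand. In Svs2 it lay only farther away, 205 and 236 bases before the start. TATAAA on either strand was present in 20 of the 74 genes with a listed promoter among the 100 brightest (27.0%), in 14.3% of the 12848 measured genes with one, in 20.5% of the 5203 such genes not above background on either array, and in 13.6% of all 32851 promoters of the table. A gene was counted when any of its listed promoters held the motif, whereas the last share counts each promoter singly. A match of these letters is a description and not a site in use.

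The deposited values were normalized intensities on a linear scale, from 37.4 to 56472 on normal 1 and from 38.1 to 56472 on normal 2, with a median of 106 on both, and their log2 was taken. The 2 arrays held nearly the same set of sorted values, with a median gap of 0.0333%, so an intensity here is in effect a rank within its array. The brightness of a probe depends on its sequence as well as on the transcript, and ranks order signals and not molecules. A probe was counted as above background when its log2 intensity passed 6.71, an intensity of 105. It is the point that background probes pass at a rate of 0.01 if they are normally distributed around the mode of all values (6.13) with the SD seen below the mode (0.251). By that measure 12427 probes (50.5%) were above background on normal 1 and 12442 (50.6%) on normal 2. The probes named 15967 genes, each represented by its brightest probe, of which 8589 (53.8%) lay above background on both arrays, 405 on normal 1 alone, 470 on normal 2 alone and 6503 on neither. The 100 brightest probes carried 17.9% of the summed intensity of each array and the 1000 brightest 55.4%. Among the 100 brightest probes, 32 had no gene named in the platform's table and could not be described.

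The brightest genes belonged to a few groups: products secreted into semen, smooth muscle proteins, cytosolic ribosomal proteins and other genes that all cells use. Of the 30 brightest genes, 11 encoded cytosolic ribosomal proteins, 4 were on the list of prostate secretory products, 3 on the seminal vesicle list and 3 on the smooth muscle list. Rpl37, a protein of the large ribosomal subunit, was 15.78 on normal 1 and 15.74 on normal 2 and came first by the mean among the named genes. Svs2, a seminal vesicle protein and main component of the copulatory plug, came next with 15.73 and 15.78. Tgm4 ranked 6 on normal 1 and 3 on normal 2, with 15.69 and 15.75. At this height the values of neighbouring genes often differ by less than the same gene differs between the 2 arrays, so their exact order is not resolved. The arrays shared 7 of their 10 brightest genes, 22 of 30, 77 of 100 and 881 of 1000.

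**Figure D1:**
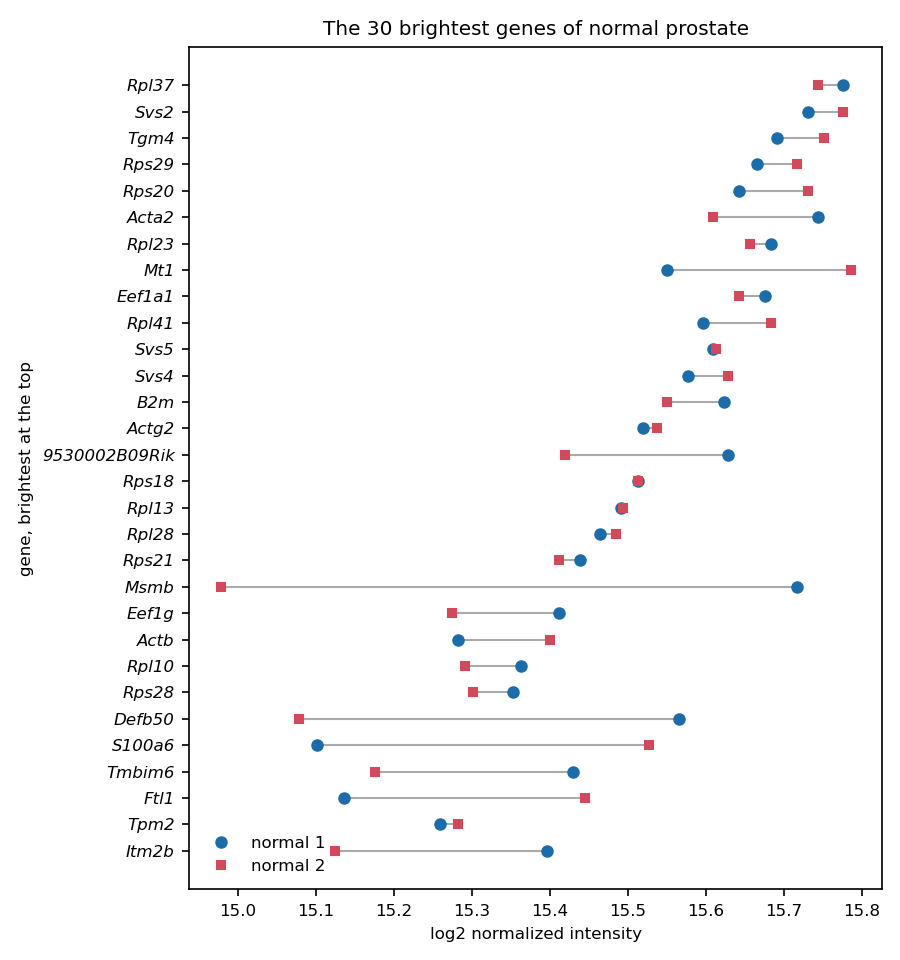
The 30 genes with the highest mean, with log2 normalized intensity on the horizontal axis and the gene on the vertical axis; circles stand for normal 1 and squares for normal 2. Most pairs lie close together, while Msmb (15.72 and 14.98) and Defb50 (15.57 and 15.08) lie farther left on normal 2.

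Outside these lists, the 30 brightest genes included Mt1, a metallothionein that binds zinc and copper, with 15.55 on normal 1 and 15.79 on normal 2, where it was the brightest of all named genes. Eef1a1, a translation elongation factor, was 15.68 and 15.64, and B2m, the light chain of MHC class I, was 15.62 and 15.55. Actb, the cytoplasmic actin, Ftl1, the ferritin light chain, and Eef1g, another elongation factor, were there too. S100a6, a calcium-binding protein, was 15.10 and 15.53, Tmbim6, a membrane protein of the endoplasmic reticulum, 15.43 and 15.18, and Itm2b, a membrane protein, 15.40 and 15.12.

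All 16 members of the list of prostate secretory products were measured, and 15 lay above background on both arrays. Of these 16, 12 were among the 1500 brightest genes, which make up 9.39% of all genes. Counts of every list are to be read against this share and against the 53.8% of all genes above background on both arrays. The median rank of the list was 137 of 15967. The lists named here were chosen with earlier results of these data known, so their height is a description and no independent evidence. Msmb, the secreted beta-microseminoprotein, was 15.72 on normal 1 and 14.98 on normal 2. 9530002B09Rik, which has only a systematic name, was 15.63 and 15.42, and Defb50, a gene of the antimicrobial beta-defensin family, 15.57 and 15.08. These genes and Tgm4 all held ranks of 25 or better by the mean.

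Further members are named after their values were seen. Clu, the secreted chaperone clusterin, was 14.54 and 15.47, and 9530003J23Rik was 15.12 and 14.87. Pigr, the receptor that carries polymeric immunoglobulin across epithelium, was 13.74 and 14.65. Pbsn, the androgen-dependent secretory protein probasin of the mouse prostate, was 11.31 and 10.45 and ranked 2010, below most of its list. Acp3, the prostatic acid phosphatase, listed in the files as Acpp, was 8.52 and 7.96. Agr2, a protein disulfide isomerase of secretory epithelium, was 7.51 and 7.17. Sbp, the spermine-binding protein, was dimmest, with 7.08 on normal 1 and 6.27, below background, on normal 2.

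The seminal vesicle list was split between very bright and dim genes. Svs2, Svs5 and Svs4, in that order by the mean, ranked 2, 11 and 12. Svs5 was 15.61 on both arrays, and Svs4 15.58 and 15.63. Svs3b was 13.72 and 14.29. Below these, and named after their values were seen, Svs1 was 12.19 and 12.87, Ceacam10 9.33 and 10.51, Svs3a 8.30 and 8.83, Svs6 7.72 and 8.17, and Pate4, also called Svs7, 6.93 and 6.88. Spinkl was not above background on either array, which left 9 of 10 above it on both. Svs3a and Svs3b are close copies, and their probes may take up each other's transcripts. The label of these samples names prostate alone, and the level of seminal vesicle secretions in it is given here as a measured fact. Whether the tissue held parts of the seminal vesicle was not tested.

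Of other parts of the tract, epididymis and vas deferens genes were mostly at background, and urothelium genes were mixed. Of 8 measured genes of epididymis and vas deferens, 1 was above background on both arrays, against 53.8% of all genes. The other 7 were not above background on either array, among them Cst11, Rnase10 and Lcn5. The exception was Lcn2, an iron-binding lipocalin that epithelia and neutrophils also make, with 12.52 on normal 1 and 15.69 on normal 2. Of 4 genes of the urothelium, the lining of bladder and urethra, 2 were above background on both arrays, a share near the 53.8% of all genes. They were Upk2 (10.18 and 12.07) and Upk3a (7.11 and 8.84), while Krt20 and Upk1b were above it on neither. Both Upk2 and Upk3a were 2-fold or more higher in normal 2, with a median log2 difference of 1.81.

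The luminal epithelium was visible through keratins, junction proteins and transcription factors. Of 16 measured genes 14 lay above background on both arrays, against 53.8% of all genes, and 6 were among the 1500 brightest. Krt8 and Krt18, the keratin pair of simple epithelium, were 13.55 and 14.06, and 13.82 and 13.40. Tmprss2, an androgen-regulated membrane protease, was 12.98 and 12.91. Hoxb13, a homeobox factor of prostate identity, was 13.45 on normal 1 and 12.28 on normal 2. Epcam, an epithelial adhesion molecule, and Ehf, an epithelial transcription factor, were not above background by their probes, although Cdh1, the epithelial cadherin, was 10.67 and 10.74. Epcam, Ehf and Cdh1 are named after their values were seen.

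Among 14 patterning factors, 8 lay above background on both arrays, a share near the 53.8% of all genes, and 6 were among the 1500 brightest. These 6 were Gata2, Hoxb13, Sox9, Foxa1, Gata3 and Tbx3. Gata2, a GATA-family zinc finger factor, was 13.29 and 13.21, Sox9, a factor of prostate bud growth, was 12.73 and 12.70, and Foxa1, a pioneer factor of luminal cells, was 12.74 and 12.18. Tbx3 and Gata3, named after their values were seen, were 12.25 and 12.19, and 12.49 and 12.31. Pax2, Foxa2, Hoxd11 and Sox2 were not above background on either array. Of 6 steroid receptor and steroid metabolism genes, Esr1, the estrogen receptor alpha, was 8.60 and 8.86 and Esr2, the beta form, 7.52 and 6.77. Pgr, Nr3c1, Akr1c18 and Hsd17b4 were not above background by their probes.

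Basal epithelial genes were present too. Of 12 genes 10 lay above background on both arrays, against 53.8% of all genes, and 3 were among the 1500 brightest. Krt15 and Krt14, keratins of basal cells, were 11.82 and 13.14, and 11.86 and 13.08. Trp63, the transcription factor p63 that marks basal cells, was 11.29 and 11.59. Itgb4, the integrin of hemidesmosomes, was 10.35 and 11.19. Ngfr was at background on both arrays.

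Genes of the secretory pathway were bright. Of 19 genes for protein folding and export from the endoplasmic reticulum, 16 lay above background on both arrays and 13 were among the 1500 brightest. P4hb, the protein disulfide isomerase, was 15.03 and 14.58. Xbp1, a transcription factor that expands the secretory apparatus, was 14.28 and 14.26, Hsp90b1, a chaperone, was 14.04 and 14.19, and Ssr4, a subunit of the translocon-associated complex, was 14.32 and 13.81. Manf, Canx and Calr were not above background on either array by their probes. Calnexin and calreticulin (Canx and Calr) are chaperones that nearly all cells make, so a reading at background does not show that a transcript is absent.

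The prostate is known for its high zinc and polyamine content. Of 8 metallothionein and zinc transporter genes, 7 lay above background on both arrays, against 53.8% of all genes, and Slc30a4 on neither. Mt2 was 12.53 and 11.86, Slc30a2, a zinc exporter of vesicles, 12.02 and 12.06, and Slc39a4, a zinc importer, 10.94 and 11.91. Of 6 polyamine genes, Oaz1, the antizyme that restrains ornithine decarboxylase, was 12.79 and 12.59. Sat1, which acetylates polyamines, was 12.33 and 13.02, Srm, spermidine synthase, 10.91 and 10.49, and Smox, spermine oxidase, 9.84 and 10.38. Azin1 passed the background threshold on normal 1 alone.

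Smooth muscle genes were bright on both arrays. All 14 measured genes lay above background on both arrays, 9 were among the 1500 brightest and 5 among the 100 brightest. Acta2, the smooth muscle alpha actin, was 15.74 on normal 1 and 15.61 on normal 2, and Actg2, the gamma actin of visceral smooth muscle, was 15.52 and 15.54. Tpm2, a tropomyosin, was 15.26 and 15.28, and Mylk, the myosin light chain kinase, 14.99 and 14.74. Myh11, the myosin heavy chain of smooth muscle, was 14.48 and 14.44, rank 75. The dimmest member was Cald1, caldesmon, named after its values were seen, with 7.51 and 7.75.

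Skeletal muscle genes were present as well. All 12 lay above background on both arrays, and 5 were among the 1500 brightest. Acta1, the skeletal muscle actin, was 14.95 and 15.10, rank 38. Atp2a1, the calcium pump of fast muscle, was 13.10 and 13.28, and the fast troponins Tnni2 and Tnnc2 were 12.78 and 13.25, and 12.67 and 12.89. The myosin heavy chains Myh4 and Myh2, named after their values were seen, were dimmer, with 8.25 and 8.75, and 7.79 and 7.27.

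Genes of connective tissue and vessels were nearly all above background. All 17 fibroblast and matrix genes lay above background on both arrays. Dcn, the proteoglycan decorin, was 14.23 and 15.16, Mgp, matrix Gla protein, 12.85 and 14.09, Col6a1, a collagen chain, 11.99 and 12.87, and Serpinf1, a secreted inhibitor of vessel growth, 10.99 and 12.10. Of 15 endothelial genes 14 were above background on both arrays, led by the receptor partner Ramp2 (11.29 and 12.51), the adhesion molecule Esam (10.77 and 12.15), Egfl7 (10.83 and 11.91) and Emcn (10.91 and 11.75). Kdr, the main receptor for VEGF, was the endothelial gene at background on both.

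The fat list was mixed, with 6 of 9 genes above background on both arrays against 53.8% of all genes. Among the 1500 brightest genes, which make up 9.39% of all, were 5 of the 9. Adipoq, the fat cell hormone adiponectin, was 11.60 and 13.06, Car3, a carbonic anhydrase abundant in fat and muscle, 12.31 and 13.79, Scd1, a fatty acid desaturase, 13.43 and 13.06, and Lpl, lipoprotein lipase, 11.78 and 12.58. Cidec, named after its values were seen, was 10.93 and 12.42. Other fat cell genes, named likewise, were low. Plin1, the lipid droplet protein perilipin, was just above the threshold with 6.90 and 7.27, and Fabp4, a fatty acid-binding protein, with 6.53 and 6.47, and Retn, the hormone resistin, were at background on both arrays. Of 4 blood genes 3 were above background on both arrays, against 53.8% of all genes. The globin Hba-a1 was 14.82 and 15.26, rank 37, although the gene has a near-identical copy whose transcripts its probe may take up. Alas2, the heme synthesis enzyme of red cell precursors, was 9.78 and 9.96.

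Leukocyte genes ranged from well above background to at it. All 13 macrophage and myeloid genes were above background on both arrays, led by the lysosomal membrane protein Laptm5 (11.72 and 13.90), the lysozyme Lyz2 (9.64 and 12.85), the Fc receptor chain Fcer1g (9.62 and 11.92) and the complement gene C1qb (9.57 and 11.81). Cd74, which guides MHC class II molecules to the endosome, was 11.78 and 13.90, and the class II chains H2-Ab1, H2-Aa and H2-Eb1 ranked 606, 1159 and 1481. Of the lymphocyte lists, 6 of 11 T and NK cell genes were above background on both arrays, a share near the 53.8% of all genes, and 3 of 8 B and plasma cell genes, a smaller share. Coro1a, an actin regulator of all leukocytes, led the T and NK list with 9.73 and 11.83, while the T cell receptor subunits Cd3e, Cd3g and Cd3d lay between 6.77 and 8.61. Among mast cell genes, Kit, the receptor of stem cell factor that other cells also carry, was 9.79 and 9.58, and the protease Cpa3 was 7.44 and 8.55. Mcpt4 and Cma1, the mast cell chymases, were between 7.16 and 8.18, and Fcer1a, Ms4a2 and Tpsab1 were not above background on either array.

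Of 11 nerve and glia genes 7 lay above background on both arrays, a share not far from the 53.8% of all genes, with Uchl1, a neuronal ubiquitin hydrolase, at 10.26 and 10.25, Mbp, a myelin protein, at 9.84 and 10.07, Stmn2, a neuronal tubulin regulator, at 9.37 and 9.57, and Sox10, the Schwann cell factor, at 8.11 and 8.50. Of 6 neuroendocrine genes Syp, synaptophysin of synaptic vesicles, was 9.45 and 9.66 and Scg2 7.78 and 7.54. Chgb passed the threshold on normal 2 alone, and Scg3, Chga and Insm1 on neither. Of 5 mesothelial genes, 4 were above background on both arrays, against 53.8% of all genes. Krt19, a keratin that simple epithelia share, led that list with 11.67 and 12.16. No gene of the proliferation list was among the 1500 brightest, and 11 of 14 lay above background on both arrays, against 53.8% of all genes. Mcm5 (9.33 and 9.54), Mcm2 (9.25 and 8.86), Top2a (8.68 and 8.25) and Tyms (8.40 and 8.37) were the highest of that list.

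**Figure D2:**
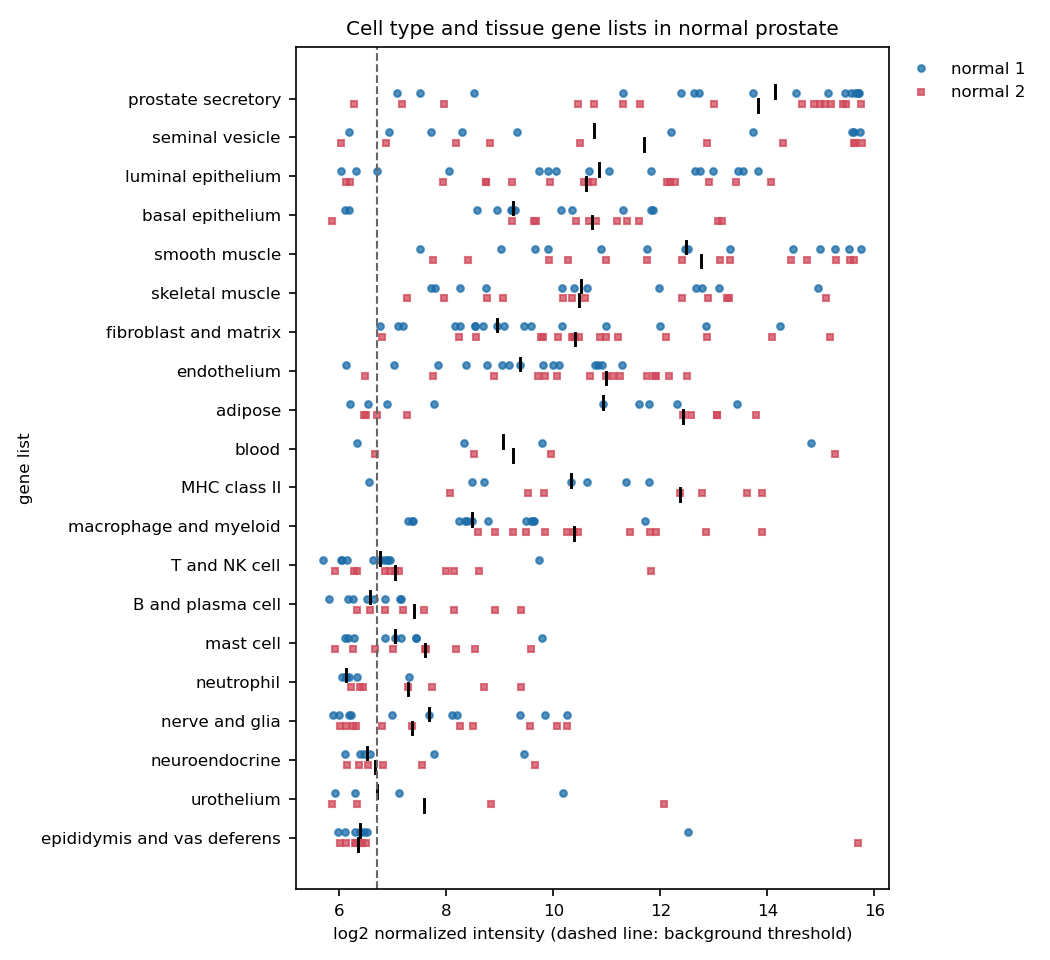
Log2 normalized intensity of every measured member of 20 gene lists, with 1 circle per gene for normal 1, 1 square per gene for normal 2, a black bar at each array's median and a dashed line at the background threshold of 6.71. Prostate secretory and smooth muscle genes reach the top of the scale on both arrays, and the medians of the macrophage, MHC class II, fibroblast and endothelial lists lie farther right on normal 2.

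How closely the 2 arrays agreed was then measured. Over all 24613 probes the log2 intensities correlated with r = 0.974 (Spearman's rho 0.952), and over the 9464 genes above background on at least 1 array, 59.3% of all, with r = 0.956 (rho 0.947). These correlations are across genes, which are not independent replicates. Of these 9464 genes 83.8% differed by less than 1.5-fold and 93.5% by less than 2-fold. The median absolute difference was 0.25 on the log2 scale, 0.15 among the 100 brightest genes, between 0.21 and 0.25 in each range of ranks from there to 4000, 0.29 among the 4000 genes ranked next below those and 0.22 among the 1464 dimmest. There was thus no steady trend with brightness. These ranks are by the mean of both arrays, so a gene bright on only 1 array can fall out of the top range. Sbpl, at rank 5 on normal 1 and 1561 on normal 2, ranked 236 by the mean. Both arrays also share the same highest value, 56472, which limits the difference of genes close to it on both.

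The remaining differences were lopsided. In normal 2, 497 genes (5.25%) were higher by 2-fold or more, and in normal 1, 119 genes (1.26%). At 4-fold or more the counts were 108 and 22. By any amount, 39.5% of the 9464 genes were higher in normal 2 and 60.5% in normal 1, and the median difference, normal 2 minus normal 1, was -0.09. After cyclic loess scaling that median was 0.02, with 599 and 87 genes past 2-fold, so the lean toward normal 2 among large differences was there under both scalings. With 1 array on each side these are folds without a test. Of 1682 genes with several probes above background on at least 1 array, 0 had probes past 2-fold in opposite directions, and 51 had 1 probe past it and another not.

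**Figure D3:**
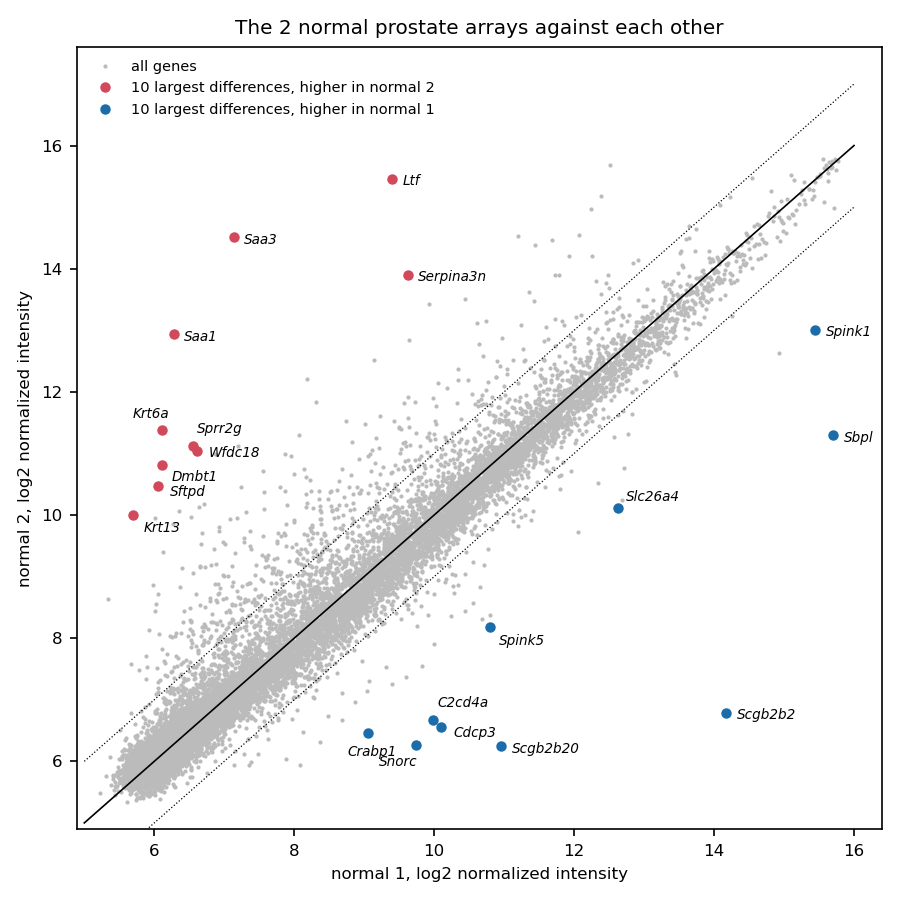
Log2 normalized intensity of each gene on normal 1 (horizontal) and normal 2 (vertical); the solid line marks equal values, the dotted lines a 2-fold difference, and coloured points the 10 largest differences each way. Most genes follow the solid line, with more points above the upper dotted line (497) than below the lower one (119).

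For the 10 genes most above normal 1 in normal 2, roles are given as background, and no shared function was tested. Saa3, an acute-phase serum amyloid A made in inflamed tissue, was 7.14 on normal 1 and 14.51 on normal 2, a 166-fold difference. Saa1, of the same family, was at background on normal 1 and 12.93 on normal 2, at least 74.6-fold higher, where the background threshold stands in for the dim value. Ltf, the iron-binding antimicrobial lactoferrin, was 9.40 and 15.46, or 66.7-fold higher, and on normal 2 was among the brightest of all genes, at rank 21. Krt6a, a keratin of stressed or stratified epithelium, was at background on normal 1 and 11.38 on normal 2, at least 25.4-fold higher by its brightest probe. Its 2 other probes, also at background on normal 1, were 7.52 and 7.86 on normal 2, and with the 3 probes averaged the log2 difference was 2.73 in place of 5.26, so its size rests on 1 probe.

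The rest of the 10 were Dmbt1, Sprr2g, Wfdc18, Sftpd, Krt13 and Serpina3n. Dmbt1, a scavenger receptor of mucosal defence, was at least 17.2-fold higher in normal 2, and Sftpd, a collectin that binds microbes, at least 13.6-fold. Sprr2g, a small proline-rich protein of cornified epithelium, was at least 21.4-fold higher, and Krt13, a keratin of stratified and transitional epithelium, at least 9.79-fold. The Sprr2 genes are close copies, so their probes may not separate them. Serpina3n, an acute-phase protease inhibitor, was 9.62 and 13.90, a 19.5-fold difference, and Wfdc18 was at least 20.2-fold higher. When the threshold replaced every dimmer value, 8 of these 10 genes were still among the 10 largest, and Akr1b8 and Itih4 entered.

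The 10 genes most above normal 2 in normal 1 included Sbpl and Spink1 of the prostate secretory list. Scgb2b2, a secretoglobin of the androgen-binding protein family, was 14.18 on normal 1 and 6.78 on normal 2 by its brightest probe, the latter just above the threshold, a 168-fold difference by that probe alone whose size the background limits. Its other probe was 6.78 and 6.47, and with both averaged the log2 difference was -3.85 in place of -7.39. Its relative Scgb2b20 was at least 19.0-fold higher in normal 1. These genes are close copies, and their probes may share transcripts. Sbpl, a gene like that of the spermine-binding protein, was 15.70 and 11.29, 21.2-fold higher in normal 1, where it was among the brightest genes at rank 5. Spink1, a secreted trypsin inhibitor, was 15.44 and 13.00, 5.44-fold higher, and Spink5, a relative, was 10.80 and 8.19, 6.13-fold higher. Slc26a4, an anion exchanger, was 12.63 and 10.12, a 5.67-fold difference. Cdcp3, Snorc, C2cd4a and Crabp1, the last a retinoic acid-binding protein, were at background on normal 2 and at least 10.4-fold, 8.18-fold, 9.69-fold and 5.09-fold higher in normal 1. When the threshold replaced every dimmer value, 9 of the 10 were still there, and Abo entered.

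The Sbpl start region is shown because that gene stood among the brightest on 1 array and well below on the other. It lies at chr17:23955224-23955523 on the minus strand of GRCm38.p6 and is drawn from RefSeq in the same way as those above, with TATAAA in capitals 30 bases before the start.
Sbpl: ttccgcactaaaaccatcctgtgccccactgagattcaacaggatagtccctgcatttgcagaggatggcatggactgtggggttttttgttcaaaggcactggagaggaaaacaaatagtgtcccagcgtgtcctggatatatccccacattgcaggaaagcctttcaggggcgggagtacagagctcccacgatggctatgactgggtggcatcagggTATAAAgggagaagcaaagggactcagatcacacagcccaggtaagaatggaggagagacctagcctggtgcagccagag

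The lists below are to be read against 5.25% of all genes 2-fold or more higher in normal 2 and 1.26% in normal 1, and against 39.5% and 60.5% by any amount. In bulk tissue fewer cells of a type and less RNA per cell cannot be told apart. Of the 13 macrophage and myeloid genes all were higher in normal 2, 12 of them by 2-fold or more, with a median log2 difference of 1.94 and a summed intensity of 8693 on normal 1 and 39934 on normal 2. The 7 MHC class II genes were all higher by 2-fold or more, with a median of 2.03 and sums of 9898 and 42085. Of these 7, Ciita (6.56 and 8.06) passed the background threshold on normal 2 alone, which fixed its direction. Lyz2, the macrophage lysozyme, was 9.23-fold higher. The neutrophil list had 4 of its 7 genes above background on at least 1 array. S100a8 and S100a9, the calgranulins of neutrophils, were at background on normal 1 and 9.40 and 8.71 on normal 2, and Retnlg was likewise seen on normal 2 alone (7.74). Camp was 7.31 and 7.29, and Elane, Mpo and Ngp, made by immature neutrophils, were at background on both arrays.

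The lymphocyte lists leaned the same way at lower levels. Of 8 T and NK cell genes above background on at least 1 array, all were higher in normal 2 and 4 by 2-fold or more. Their median was 0.95, or 0.66 with the threshold in place of dimmer values. Of these 8, 2 passed on normal 2 alone, which fixed their direction, and all 11 measured were higher. Of 6 B and plasma cell genes above background on at least 1 array, all were higher and 3 by 2-fold or more. Their median was 1.29, or 1.08 with the threshold in place of dimmer values. Of these 6, 3 passed on normal 2 alone, which fixed their direction, and of all 8 measured 7 were higher. Mzb1, a chaperone of antibody-secreting cells, was 7.15 and 9.39, and Cd79b, a B cell receptor subunit, was 7.13 and 8.91. Mast cell genes differed less: 1 of 6 was 2-fold higher, and the median was 0.51.

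Stromal and basal lists were also higher in normal 2. All 17 fibroblast and matrix genes were higher there, 14 by 2-fold or more, with a median of 1.24 and sums of 38444 and 81339. Sfrp1, a secreted Wnt antagonist named after its values were seen, was 8.17 and 10.35, and Postn, periostin, named likewise, was 6.76 and 6.81. All 14 endothelial genes above background were higher, 9 by 2-fold or more, with a median of 1.15. All 11 basal epithelial genes above background on at least 1 array were higher, 5 by 2-fold or more, with a median of 0.84. Krt6a passed that filter on normal 2 alone, which fixed its direction. Ngfr, at background on both arrays, was 6.18 and 5.86. Of the fat genes 3 of 7 were 2-fold higher and 1, Lep, at least 2.07-fold lower, with a median of 0.80. Lep passed the filter on normal 1 alone, which fixed its direction. After cyclic loess 3 fat genes were 2-fold higher and 0 were 2-fold lower. When all probes of a gene were averaged the medians were 1.11 for the fibroblast, 1.00 for the endothelial, 0.66 for the basal and 0.43 for the fat list. The part that the inflammatory genes and leukocytes of normal 2 have in these differences was not tested.

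Prostate and luminal lists leaned the other way, with exceptions. Of the 16 secretory genes 12 were higher in normal 1, against 60.5% of all genes, 4 of them by 2-fold or more, with a median of -0.53. Of these 12, Sbp passed the background threshold on normal 1 alone, which fixed its direction. After cyclic loess 3 of the 16 were 2-fold higher in normal 1 and 2 in normal 2, with a median of -0.41. Before it, the 4 were Sbpl, Spink1, Azgp1 (12.71 and 10.77) and Apof (12.63 and 11.63). Wfdc2, a secreted protease inhibitor named after its values were seen, went the other way, with 12.39 on normal 1 and 15.19 on normal 2, and Pigr and Clu were higher in normal 2 too. Of 14 luminal genes above background 4 were 2-fold higher in normal 1 and 2 in normal 2, with a median of -0.45, and 3 and 2 after cyclic loess. The 4 were Hoxb13, Slc45a3, Creb3l4 and Spdef, and the 2 were Elf3 and Steap4. By any amount 4 of the 14 luminal genes were higher in normal 2, against 39.5% of all genes. After cyclic loess 6 of them were, with a median of -0.35 against 0.02 over all genes. The 39.5% holds for the values before this scaling. With all probes of a gene averaged, 1 luminal gene in place of 2 was 2-fold higher in normal 2. Genes of protein folding and secretion were higher in normal 1 in 14 of 16 cases, against 60.5% of all genes, 0 of them by 2-fold, with a median of -0.42 against -0.09 over all genes.

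In muscle genes the arrays differed little. Among the 14 smooth muscle genes 0 passed 2-fold either way, the differences ran from -0.61 to 0.65, and their median was 0.00, or 0.09 after cyclic loess. Among the 12 skeletal muscle genes 0 passed 2-fold, the differences ran from -0.53 to 0.51, and the median was 0.21, or 0.32 after cyclic loess. By any amount 10 of these 12 were higher in normal 2, against 39.5% of all genes. The summed smooth muscle intensity was 225846 on normal 1 and 219472 on normal 2. The housekeeping list, with 11 measured genes, had a median of 0.03 and none past 2-fold. The 48 cytosolic ribosomal protein genes above background, found by symbol, had a median of -0.12, and the 79 respiratory chain genes, found in the same way, a median of -0.21, again with 0 past 2-fold. Seminal vesicle genes were higher in normal 2 in 8 of 9 cases, with a median of 0.45, and Svs2, Svs5 and Svs4 differed by 0.05, 0.00 and 0.05. These 3 lie near the highest value of both arrays, so their small differences do not show equal transcript levels. Among dimmer members, Svs3b, Svs1, Ceacam10, Svs3a and Svs6 differed by 0.57, 0.68, 1.18, 0.53 and 0.45, and Pate4 by -0.05. Nerve and glia genes had a median of 0.05, and it was -0.01 with all probes averaged.

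**Figure D4:**
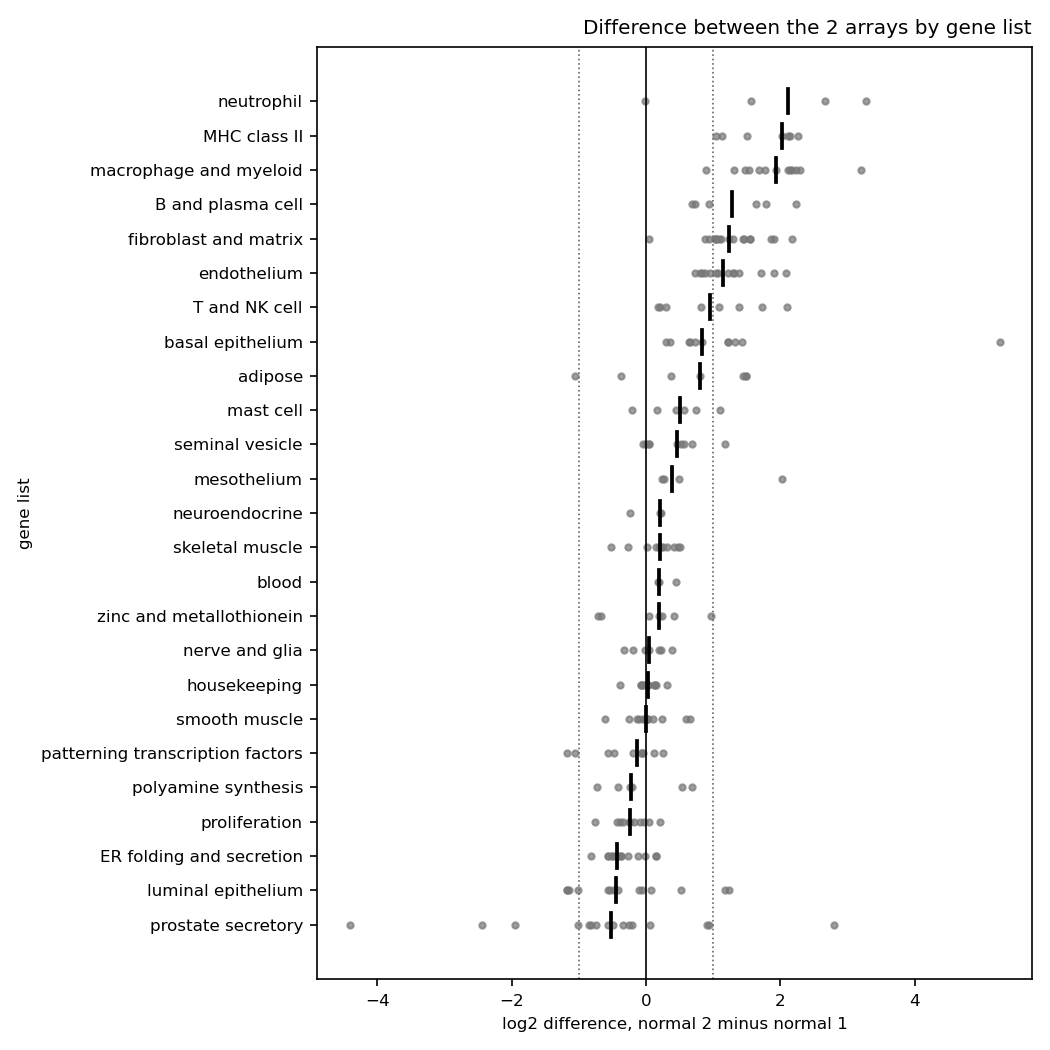
Log2 difference, normal 2 minus normal 1, of each gene above background on at least 1 array (points), by gene list, with a black bar at the median of each list and dotted lines at 2-fold; lists with fewer than 3 such genes are left out. Myeloid, MHC class II, fibroblast and endothelial genes lie right of 0, smooth muscle genes around it (median 0.00), and most prostate secretory genes left of it (median -0.53).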

How the data were processed

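RNA of 2 normal prostate samples was labelled with biotin and hybridized to Illumina bead arrays, 1 per sample. Per the submitters' processing notes BeadStudio was used. Its version was not given in the sources used here, nor was the normalization. The values used were the intensities deposited by the authors, linear and normalized, as a table of processed values with 1 column per sample. The sorted values of the 2 columns differed by at most 3.66%, as after quantile normalization. A table of signals before normalization has 8 per-sample columns named by slide position only, which no label ties to a sample. It was not used here, and neither were its detection p-values or the slides as batches.

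The log2 of the intensities was taken. Of 24613 probes, 20984 had 1 gene symbol in the platform's table, 1 had several and 3628 had none given there; 20968 symbols were found by Entrez ID in RefSeq (GRCm38.p6) and 0 changed. Of 15967 genes, 3728 had several probes, and the brightest by the mean of both arrays was used. The 28 gene lists and the rules were chosen with earlier results of these data known. Genes named were the 30 brightest, up to 4 per list by mean, the 10 largest differences each way and Tgm4, Svs4, Msmb, Myh11 and Acta2; others are marked as named after their values were seen or are given in counts of 5 or fewer. List members with no probe named are not analysed here. A fold with an array at background was taken from the threshold and is written as at least that much. The number of arrays limits the precision. Alternatives covered the threshold, the probe rule, the scaling (limma 3.58.1 in R 4.3.3 for cyclic loess), the filter, the fold and each array alone. Scripts ran in Python 3.11.15 with numpy 2.4.6, scipy 1.17.1 and matplotlib 3.10.9, and were tested on simulated data.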

Additional observations from a re-analysis of the deposited data

How the results depend on the processing

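Genes above background on both arrays numbered 8589, with 9281 at a one-sided tail of 0.05 and 7989 at 0.001; on a single array they were between 8994 and 9059. Of the 30 brightest genes, 22 remained with all probes of a gene averaged, 30 with ranks averaged, and 26 with either array left out (26 to 26). The counts past 2-fold, 497 higher in normal 2 and 119 higher in normal 1, became 990 and 546 at 1.5-fold and 108 and 22 at 4-fold. Under the other 7 alternatives they lay within 1.5 times of these, among them 573 and 91 with differences centred on their median, 560 and 145 after subtraction of the background mode with an offset of 50, and 403 and 96 with both arrays above background. The share of calls higher in normal 2 was 80.7%, and 87.3% after cyclic loess. No list with a median difference of 2-fold or more turned its direction under any alternative run on it, and all 20 named differences kept theirs. For 18 of these the gene has 1 probe; with all probes averaged the other 2 shrank, Scgb2b2 from -7.39 to -3.85 and Krt6a from 5.26 to 2.73. The lowest median of those lists over these alternatives was 0.93. The limit of the 1500 brightest genes was set after the values were seen, in place of the brightest 10% (1597 genes), with which the count of 1 of the 28 lists, endothelium, is 4 in place of 3. No paired analysis was possible because the 2 arrays form 1 group and no other group is compared. Background limits genes near an intensity of 105: a fold against a value below it is only a bound, and one against a value just above it, as for Scgb2b2, is imprecise.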
